A study of Mus musculus with 4 samples.

Results

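Sarcomere genes encode the contractile units of muscle fibres, and 41 of them were examined for peaks of PHF2, of the 21887 protein-coding genes annotated on the autosomes, X and Y. They are a list of named genes, chosen with earlier results of these data known. Peaks were taken for each gene body in mm10 with 5 kb added on each side. By place in the sarcomere they are 12 thick filament genes, 16 thin filament genes, 10 Z-disc genes, 2 M-band genes and titin, which spans from Z-disc to M-band. PHF2, a chromatin factor of the JmjC demethylase family that carries a PHD finger, was mapped by CUT&RUN, where a nuclease tethered to an antibody cuts out the DNA beside the bound protein. The tissue was calf muscle (gastrocnemius) from male C57BL/6 mice aged 4 weeks. The groups were Phf2 flox/flox;Acta1 Cre+ (KO) with the PHF2 antibody, Phf2 flox/flox;Acta1 Cre- (Ctrl) with the PHF2 antibody, KO with IgG, a non-specific antibody that measures background, and Ctrl with IgG. All animals carried the floxed allele. Each of the 4 groups was 1 library, so the comparisons hold for these libraries rather than for the genotypes, there was no test across samples, and the 95% intervals cover counting error alone. Acta1-Cre acts in muscle fibres, and the other cells of whole muscle keep Phf2. The deposited lists held 161 peaks for KO PHF2, 1621 for Ctrl PHF2, 152 for KO IgG and 77 for Ctrl IgG. Peak lists hold no expression values, so neither the tissue label nor the deletion was checked by them. Of 25 markers of endothelial, fibro-adipogenic, satellite, immune and smooth muscle cells, 0 had a KO PHF2 peak within the same window, against 0.713% of all protein-coding genes, and 2, Cdh5 and Cd68, had a Ctrl PHF2 peak, against 7.38%, so the marker counts were near those of genes at large.

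In the sarcomere, myosin of the thick filament pulls on actin of the thin filament, troponin and tropomyosin on the thin filament make this pull depend on calcium, the Z-disc anchors thin filaments, and the M-band links thick filaments at the middle. Many of these proteins exist in fast, slow and developmental forms that belong to different fibres or ages. The PHD finger of PHF2 is known to bind trimethylated histone H3 at active gene starts.

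Ctrl PHF2 peaks lay at the starts of some of these genes and were not called at those of others. Below are the 250 bases before the transcription start, 5′ to 3′ on the gene's strand, from RefSeq (GRCm38.p6, the assembly behind mm10). Those of Des and Myl1 lay wholly within a Ctrl PHF2 peak. Of Mybpc2, 138 of the 250 bases did, and of Tmod1 35. Those of Acta1 and Myh4 lay in none and are shown for contrast. Capitals mark matches to the motifs described further on.
Des, chr1:75360042-75360291, plus strand: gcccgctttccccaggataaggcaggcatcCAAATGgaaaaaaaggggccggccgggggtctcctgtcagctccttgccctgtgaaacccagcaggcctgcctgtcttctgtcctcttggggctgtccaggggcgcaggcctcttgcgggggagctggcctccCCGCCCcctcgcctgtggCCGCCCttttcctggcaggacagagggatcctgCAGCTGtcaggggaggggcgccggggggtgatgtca
Myl1, chr1:66945057-66945306, minus strand: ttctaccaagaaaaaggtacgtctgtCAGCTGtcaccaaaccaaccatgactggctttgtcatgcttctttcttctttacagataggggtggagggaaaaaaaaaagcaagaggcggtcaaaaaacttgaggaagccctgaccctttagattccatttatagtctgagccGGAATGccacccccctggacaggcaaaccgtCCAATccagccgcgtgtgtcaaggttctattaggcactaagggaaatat
Mybpc2, chr7:44524670-44524919, minus strand: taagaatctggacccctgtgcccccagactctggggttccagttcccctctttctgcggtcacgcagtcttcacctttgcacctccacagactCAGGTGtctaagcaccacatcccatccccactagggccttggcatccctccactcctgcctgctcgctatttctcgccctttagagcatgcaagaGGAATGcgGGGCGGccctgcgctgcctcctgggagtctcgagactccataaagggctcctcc
Tmod1, chr4:46038972-46039221, plus strand: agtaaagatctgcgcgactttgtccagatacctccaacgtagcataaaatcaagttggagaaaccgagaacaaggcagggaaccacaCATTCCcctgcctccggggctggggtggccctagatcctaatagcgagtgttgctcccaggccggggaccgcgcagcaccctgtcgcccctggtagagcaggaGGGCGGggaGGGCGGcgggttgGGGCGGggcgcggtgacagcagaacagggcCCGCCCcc
Acta1, chr8:123894776-123895025, minus strand: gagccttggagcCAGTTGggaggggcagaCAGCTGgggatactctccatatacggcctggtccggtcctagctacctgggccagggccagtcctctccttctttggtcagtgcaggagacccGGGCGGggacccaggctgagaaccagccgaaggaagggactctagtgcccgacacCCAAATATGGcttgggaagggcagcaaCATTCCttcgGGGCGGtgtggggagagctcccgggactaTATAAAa
Myh4, chr11:67237562-67237811, plus strand: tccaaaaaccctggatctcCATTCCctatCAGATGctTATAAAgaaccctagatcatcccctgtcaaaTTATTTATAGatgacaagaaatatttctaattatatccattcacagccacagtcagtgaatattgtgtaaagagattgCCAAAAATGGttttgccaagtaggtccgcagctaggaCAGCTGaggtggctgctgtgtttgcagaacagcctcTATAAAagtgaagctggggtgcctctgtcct

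In the KO PHF2 library 0 of 41 sarcomere genes had a peak in the gene or the 5 kb around it, against 12 in the Ctrl PHF2 library (29.3%, Wilson interval 17.6 to 44.5). The 12 were the thick filament genes Myl1 and Mybpc2, the thin filament genes Cfl2, Tmod1, Tmod4, Tpm1 and Tpm2, the Z-disc genes Des, Flnc and Myot, the M-band gene Myom1, and Ttn. Together they held 14 peaks. Of all protein-coding genes, 0.713% had a KO PHF2 peak in the same window and 7.38% a Ctrl PHF2 peak. The KO IgG and Ctrl IgG lists also had 0 of 41, where 0.155% and 0.064% of all genes had a peak. A count of 0 among 41 allows a share of up to 7.32%. Because the list was chosen with earlier results known, its shares beside those of all genes are descriptions and no test of enrichment. The intervals do not cover that choice.

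Long genes offer more room for a peak, so the counts were also read by gene length. Of genes up to 5 kb, 1 of 6 sarcomere genes had a Ctrl PHF2 peak, against 3.18% of all genes of that length. Between 5 and 20 kb it was 3 of 12, against 5.19%, and between 20 and 50 kb 5 of 15, against 7.28%. From 50 to 100 kb it was 1 of 5, against 12.5%, and over 100 kb 2 of 3, against 17.1%. The 12 genes with a peak had a median length of 23.3 kb and the 29 without one 20.8 kb.

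**Figure D1:**
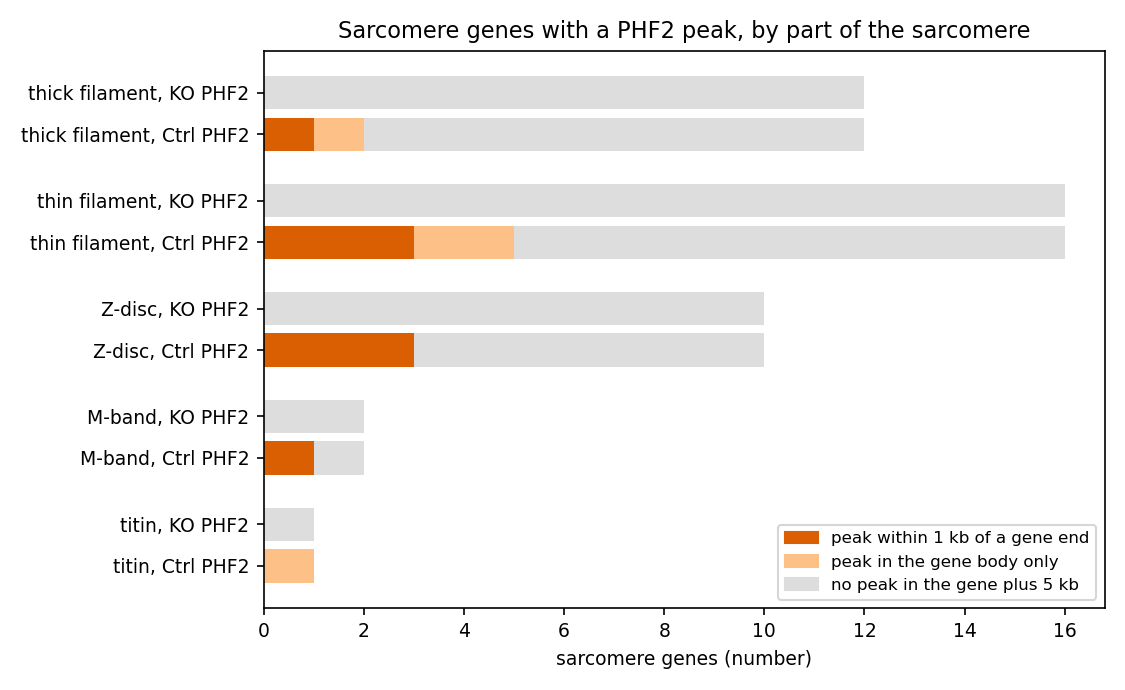
Number of sarcomere genes (horizontal axis) with a PHF2 peak within 1 kb of a gene end (dark), in the gene body only (light) or with no peak in the gene plus 5 kb (grey), for each part of the sarcomere in the KO and Ctrl PHF2 libraries. No KO bar has a coloured part, and Ctrl peaks occur in every part; the M-band gene counted at an end, Myom1, is so through a peak on its neighbour Myl12a.

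By part, Ctrl PHF2 peaks were found at 2 of 12 thick filament genes (16.7%, Wilson interval 4.70 to 44.8), 5 of 16 thin filament genes (31.2%, 14.2 to 55.6), 3 of 10 Z-disc genes (30%, 10.8 to 60.3), 1 of 2 M-band genes and titin. The intervals of the 3 larger parts overlap widely, so no part stood apart beyond counting error. At a gene end, meaning within 1 kb of either annotated end, the counts were 1 of 12 for the thick filament, 3 of 16 for the thin filament, 3 of 10 for the Z-disc and 1 of 2 for the M-band, with none at titin. In all that is 0 of 41 in the KO PHF2 library and 8 of 41 in the Ctrl PHF2 library (19.5%, 10.2 to 34.0). Of all protein-coding genes, 0.484% had a KO PHF2 peak at an end and 5.6% a Ctrl PHF2 peak.

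The thick filament carried 2 peaks, neither of them at a heavy chain gene. Myl1 (Gene ID 17901), the fast essential light chain, had a peak 805 bp wide on chromosome 1, from 66944608 to 66945412. Its fold enrichment, the authors' ratio at the summit over local background, was 8.37, rank 236 of the 1621 Ctrl PHF2 peaks, and its summit held 16 tags (9.15 to 26.0 by an exact Poisson interval). The peak lay inside the annotated gene and covered a start listed 2.88 kb from its outer end. Mybpc2 (Gene ID 233199), the fast myosin-binding protein C, had a narrow peak of 309 bp on chromosome 7 from 44524499 to 44524807. It reached a fold enrichment of 5.14, rank 1346, with 14 tags (7.65 to 23.5).

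The adult fast heavy chain genes (Myh1, Myh2 and Myh4) and those of the embryo and newborn (Myh3 and Myh8) lie together on chromosome 11 from 67078273 to 67308634. This stretch of 230 kb held 0 Ctrl PHF2 peaks. The nearest were 1290 kb below it and 1383 kb above it. Only 7.38% of all protein-coding genes had a Ctrl PHF2 peak in the gene plus 5 kb, so none at these few genes does not set them apart. Myh7, the slow heavy chain, was 189 kb from the nearest Ctrl PHF2 peak, and the light chain genes Mylpf, Myl2 and Myl3 were 192, 171 and 348 kb away. Mybpc1, the slow myosin-binding protein C, was 1738 kb away.

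Thin filament peaks sat at Tmod1, Tmod4, Cfl2, Tpm1 and Tpm2. The actin and troponin genes had none, and neither had Neb, Lmod2 or the tropomyosin Tpm3. Of all protein-coding genes 7.38% had a Ctrl PHF2 peak in the same window, so a gene without one is the usual case. Tmod1 (Gene ID 21916), which caps the pointed end of the filament, had a peak on chromosome 4 from 46039187 to 46040060. Fold enrichment there was 5.70 and the summit had 16 tags (9.15 to 26.0). Tmod4 (Gene ID 50874), the related cap of skeletal muscle, had 5.05 with 14 tags, in a peak of 490 bp on chromosome 3 from 95124553 to 95125042. Both tropomodulin peaks began close to a listed start, 35 bp before it at Tmod1 and 39 bp after it at Tmod4. Cfl2 (Gene ID 12632), the muscle cofilin that severs actin filaments, had a peak on chromosome 12 from 54862157 to 54862845 with the same fold enrichment and tags as Tmod4.

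The tropomyosin genes differed from these in position. At Tpm2 (Gene ID 22004), beta-tropomyosin, the peak ran from 43521863 to 43522631 on chromosome 4 and its summit lay 1555 bp downstream of the start. It had 24 tags (15.4 to 35.7), the most of the 14 peaks, and a fold enrichment of 5.53, since the local background that divides it was also the highest of the 14, at 2 scaled tags. At Tpm1 (Gene ID 22003), alpha-tropomyosin, the peak lay in the gene body, on chromosome 9 from 67043588 to 67044269, and its summit was 5484 bp downstream of the listed start. It had a fold enrichment of 6.02 and 17 tags (9.90 to 27.2). Tpm3, the slow tropomyosin, had no peak within 147 kb.

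Acta1, the skeletal alpha-actin gene after which the Cre line is named, came closest of the genes without a peak. The closest Ctrl PHF2 peak, at 5.55 in fold enrichment, lay 8.86 kb beyond the gene and outside the 5 kb window, on chromosome 8 from 123882582 to 123882894. The next closest miss was the Z-disc gene Actn2, alpha-actinin 2, at 11.4 kb, where the peak, with a fold enrichment of 4.36, lay at the neighbouring gene Mtr. Inside the window, 13 of the 14 peaks overlapped their gene, and the other, upstream of Myom1, lay 0.797 kb from it. Of the remaining thin filament genes, Actc1, Lmod2, Neb, Tnnc1, Tnnc2, Tnni1, Tnni2, Tnnt1 and Tnnt3 had none.

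The Z-disc held the peak of highest fold enrichment. Des (Gene ID 13346) encodes desmin, the intermediate filament that ties neighbouring Z-discs together. Its peak of 1403 bp, the widest of the 14, ran from 75360018 to 75361420 on chromosome 1. It had a fold enrichment of 9.98, rank 86 of 1621, and 21 tags (13.0 to 32.1). Myot (Gene ID 58916), which encodes the actin-bundling protein myotilin, had a fold enrichment of 8.37 with 16 tags, in a peak of 473 bp at the lower end of the gene on chromosome 18, from 44334029 to 44334501. These values equalled those of Myl1. Flnc (Gene ID 68794), filamin C, an actin crosslinker of the Z-disc, had a pair of small peaks on chromosome 6, from 29433301 to 29433712 and from 29433868 to 29434159. Their fold enrichments were 5.05 and 4.10, the second being the lowest of the 14, and each had 14 tags (7.65 to 23.5). Actn2, Actn3, Csrp3, Ldb3, Myoz1, Myoz2 and Tcap had no peak.

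At the M-band, the larger of 2 peaks counted for Myom1 (Gene ID 17929), the crosslinker myomesin 1, lay on a neighbouring gene. That peak, on chromosome 17 from 71001959 to 71002535, lies outside Myom1 and covers the listed start of Myl12a, a regulatory myosin light chain gene. Its fold enrichment was 7.61, with 16 tags (9.15 to 26.0). Without it, 7 of 41 sarcomere genes had a peak at a gene end. The other peak, inside the annotated gene from 71019711 to 71020023, began 154 bp downstream of a start listed 16.2 kb from the outer end of the gene. It had a fold enrichment of 5.66 with 11 tags (5.49 to 19.7). Myom2, the fast myomesin, had no peak within 1563 kb. Ttn (Gene ID 22138), the longest gene of the list at 279 kb, had a single peak of 315 bp on chromosome 2 from 76980509 to 76980823. Fold enrichment was 5.55, with 11 tags. The summit lay 2007 bp downstream of the start.

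**Figure D2:**
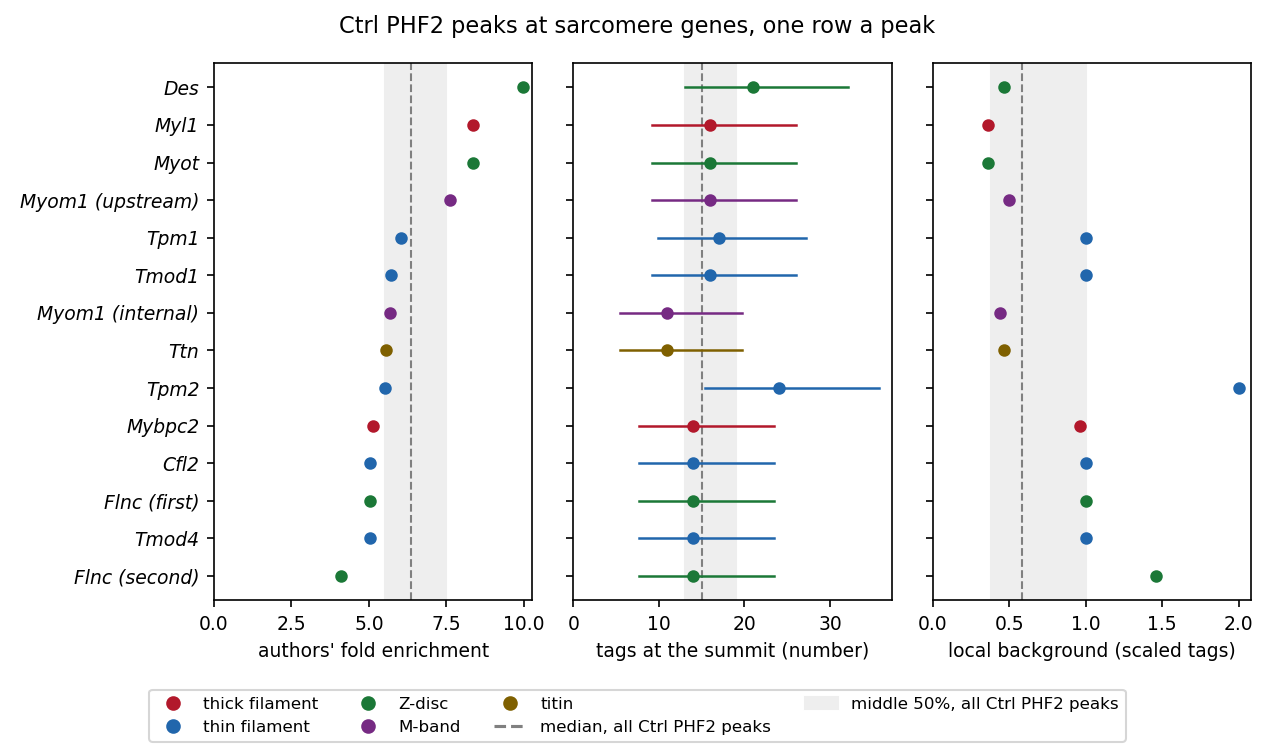
Each of the 14 Ctrl PHF2 peaks at a sarcomere gene, with the authors' fold enrichment (left), tags at the summit with exact Poisson 95% intervals (middle) and local background in scaled tags (right); the dashed line and grey band are the median and middle 50% of all 1621 Ctrl PHF2 peaks. Des leads in fold enrichment, Tpm2 leads in tags and in background, and most peaks lie at or below the list's median fold enrichment of 6.37.

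As a set these peaks were ordinary in tags and low in fold enrichment for the list. Their tags ranged from 11 to 24 with a median of 15, which was also the median of all Ctrl PHF2 peaks, and 7 lay above it and 7 below. Their median fold enrichment was 5.61, against 6.37 for the whole list, and 4 of the 14 exceeded 6.37. Background at the summit reached 1 scaled tag or more in 7 of the 14 (50%), against 37.4% of all Ctrl PHF2 peaks. The Poisson intervals of all 14 peaks overlap, and the order by tags was not tested. Their median width was 534 bp, against 505 bp.

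Most peaks at sarcomere genes lay near a start, and so did most of the whole Ctrl PHF2 list. By the annotated ends, 9 of the 14 were end peaks (64.3%, with a Wilson interval of 38.8 to 83.7), 5 lay elsewhere in the body and 0 in the flank. Of all Ctrl PHF2 peaks in a protein-coding gene or its 5 kb flanks, 73.0% lay at an end and 26.0% in a body. There an end of any gene in reach counted, while each sarcomere peak was placed against its own gene alone, so the measures are unlike. A listed start was at hand for 33 of the 41 genes and 13 of the 14 peaks. Of those 13, 10 lay within 1 kb of their gene's listed start, among them 3 of the 5 body peaks, those of Myl1, Tmod4 and the internal one of Myom1. The body peaks of Tpm1 and Ttn did not, and 0 of the 13 lay within 1 kb of the far end of the gene. Of the 1565 Ctrl PHF2 peaks on chromosomes with listed starts, 1105 (70.6%) lay within 1 kb of a start of any protein-coding gene. In genes, 9 of the 33 had a peak within 1 kb of a listed start, against 6.42% of all protein-coding genes with a listed start.

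All 10 summits near a start lay downstream of it, from 88 bp at Mybpc2 to 1555 bp at Tpm2, with a median of 255 bp. Over all Ctrl PHF2 peaks within 1 kb of a listed start, 77.8% of 1105 summits lay downstream, with a median of 236 bp and quartiles of 48 and 462 bp.

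**Figure D3:**
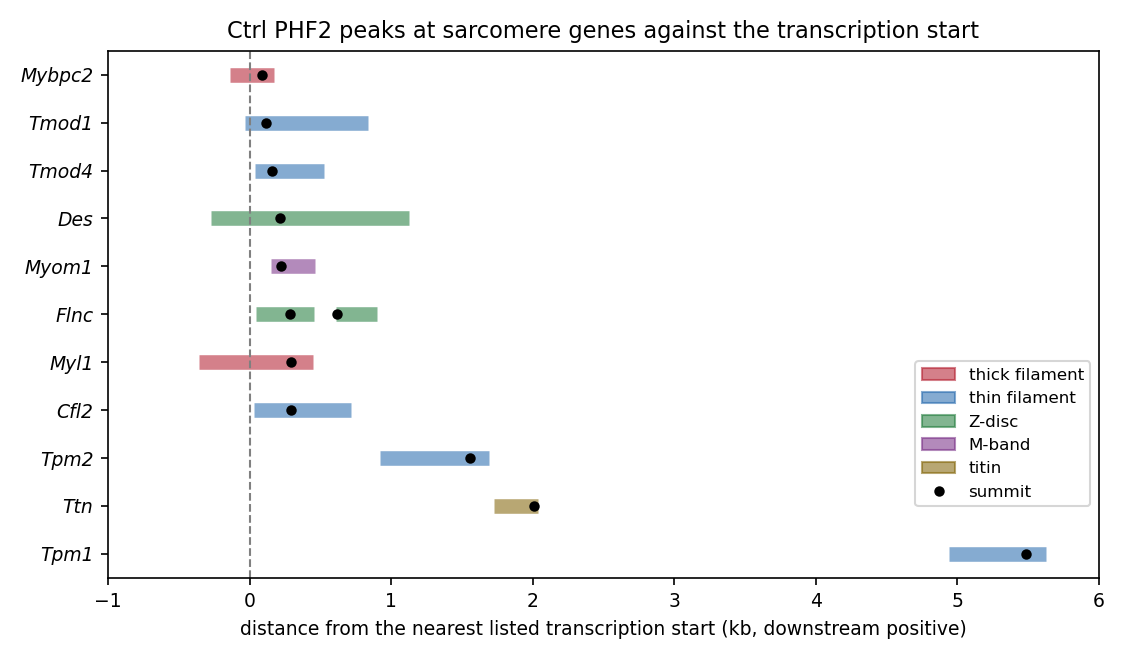
Extent (bars) and summit (dots) of Ctrl PHF2 peaks along the distance from the nearest listed transcription start, in kb with downstream positive, for the 11 sarcomere genes with both a peak and a listed start; the upstream peak of Myom1 is not drawn. The bars of Mybpc2, Tmod1, Des and Myl1 cross the start, those of Tmod4, Myom1, Flnc and Cfl2 begin just after it, and those of Tpm2, Ttn and Tpm1 lie further into the gene.

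Grouped by the fibres in which their products are known to be used, genes common to fibre types carried most of the peaks. Of 16 such genes 9 had a Ctrl PHF2 peak (56.2%, Wilson interval 33.2 to 76.9), and of 13 fast genes 3 did (23.1%, 8.18 to 50.3), namely Myl1, Mybpc2 and Tmod4, against 7.38% of all protein-coding genes. Slow genes had 0 of 9, which allows up to 33.3%, and developmental genes 0 of 3. The limit for slow genes lies above the share of fast genes, so the pair were not told apart. The intervals of common and fast genes overlap as well. Common genes also held 945 kb of the 1499 kb of summed gene length, against 255 kb for fast and 238 kb for slow genes. The part played by length was not tested. This grouping was written with the peaks already known, and the KO PHF2 count was 0 in each group. It placed Tpm1 among the common genes and Tpm3 among the slow ones, and other assignments were not tried.

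Some of the starts with a peak within 1 kb had promoters poor in CpG dinucleotides. The window read was 250 bases before to 50 after each listed start. The 9 genes with a peak within 1 kb of a start had a median of 11 CpG, with 2 at Myom1 and 38 at Cfl2 as the extremes, and the other 24 had a median of 6. Genes of the whole genome with such a peak had a median of 28, and all protein-coding genes 15. Below 10 CpG, a limit set after the values were seen, 4 of 23 sarcomere genes had a peak, Myom1, Tmod4, Myl1 and Mybpc2, against 45 of 7084 protein-coding genes (0.635%). The peaks of Myl1 and Mybpc2 covered 300 and 188 of the 300 bases of the window, that of Tmod4 covered 11, and the internal one of Myom1 lay downstream of it and covered 0. At 10 CpG or more it was 5 of 10, against 10.4%. The shares of all genes are descriptions and were not tested against the list.

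**Figure D4:**
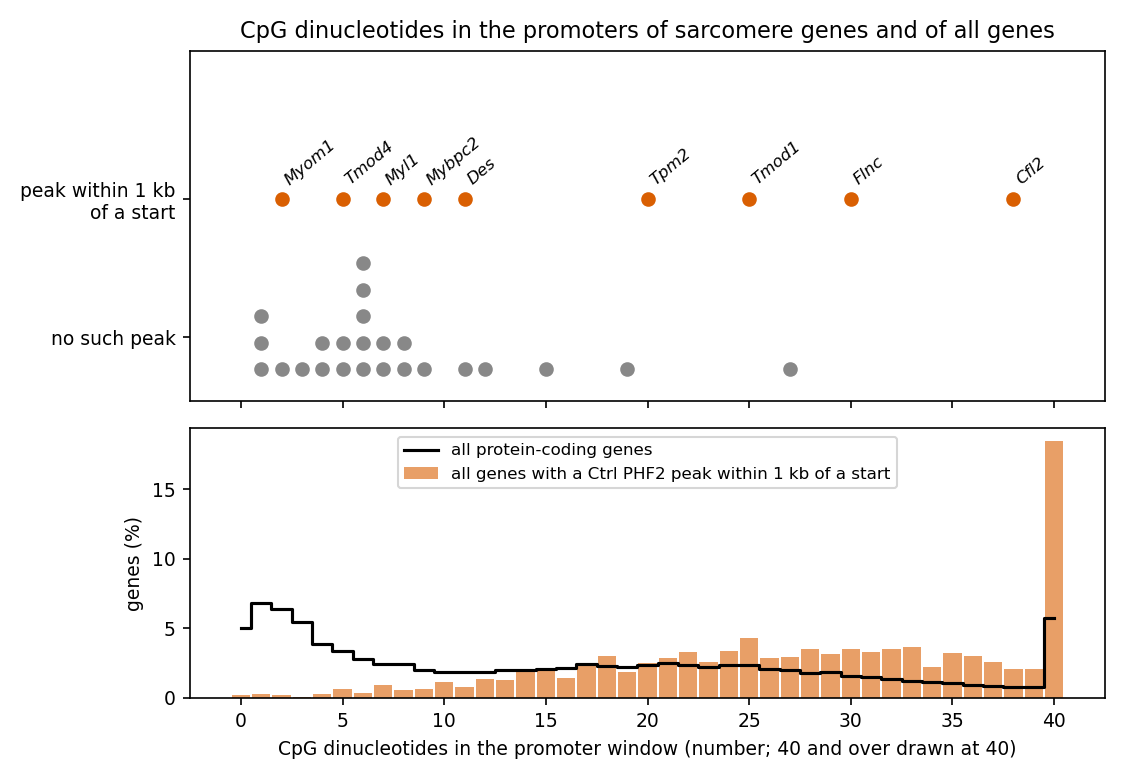
Number of CpG dinucleotides in the promoter window (horizontal axis) for the 33 sarcomere genes with a listed start, split by a Ctrl PHF2 peak within 1 kb of a start (top; points stacked where values coincide), and the percentage of genes at each number for all protein-coding genes (line) and for those with such a peak (bars, bottom). Sarcomere genes with a peak spread over 2 to 38 CpG, while most genes with a peak lie above 20.

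Motifs were read in the same windows, each on its own and on both strands, except the TATA box TATAAA, which was read on the gene's strand. TATAAA occurred in 0 of 9 sarcomere genes with a peak at a start, in 7 of the other 24 and in 9.82% of all genes. The 7 include Myh1, Myh2, Myh3 and Myh4, which lie in the same gene cluster. Both copies at Myh4 are in the sequence above, beginning 31 and 213 bases before the start. The MEF2 box, bound by MEF2 factors of muscle, occurred in 0 of 9, in 5 of 24 and in 3.27% of all genes. Those 5 include Myh1, Myh4 and Myh8 of that cluster, and Ttn, which has a Ctrl PHF2 peak further into the gene. The CArG box, bound by serum response factor, occurred in 1 of 9, in 5 of 24, Acta1 and Myh4 among them, and in 1.76% of all genes. The GC box GGGCGG occurred in 6 of 9, in 6 of 24 and in 49.2%. The E-box CANNTG, bound by MyoD-type factors, occurred in 7 of 9, 21 of 24 and 72.1%, the MCAT motif CATTCC, bound by TEAD factors, in 4 of 9, 8 of 24 and 15.5%, and CCAAT in 3 of 9, 10 of 24 and 42.3%. AP-1 TGANTCA occurred in 0 of 9, 3 of 24 and 8.12%. Neither the CRE TGACGTCA (2.54% of all genes) nor the ETS motif CCGGAAG (12.9%) occurred in a sarcomere gene. A match of letters is not a bound site.

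The KO PHF2 peak nearest to any of the 41 genes was 530 kb from Tmod4, and 0 of the 14 Ctrl PHF2 peaks overlapped one. Over the whole Ctrl PHF2 list, 114 of 1621 peaks (7.03%) overlapped a KO PHF2 peak, and among the 1431 peaks with 11 to 24 tags, the range of the sarcomere peaks, 75 did (5.24%). A count of 0 among 14 allows up to 21.4%, so the sarcomere peaks were not told apart from the rest of the list in this respect, and an absence was not detectable. Of the sarcomere peaks, 13 of 14 reached the lowest -log10 p of a KO PHF2 peak, 6.19, and all 14 had more tags than the KO PHF2 peak with the fewest, 10. KO tags at these positions were not measured, since a list gives values only where a peak was called. In whole muscle, fewer nuclei with PHF2 and less PHF2 per nucleus cannot be told apart.

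Peaks were also found at proteins that work with the sarcomere. Of 87 further genes of the filaments, Z-disc and M-band, among them chaperones, capping proteins and non-muscle relatives, 2 had a KO PHF2 peak (2.30%) and 22 a Ctrl PHF2 peak (25.3%) in the gene plus 5 kb, against 0.713% and 7.38% of all protein-coding genes. At gene ends the Ctrl PHF2 count was 19, against 5.6% of all genes. By part, the Ctrl PHF2 counts in the gene plus 5 kb were 1 of 14 for the thick filament, 5 of 21 for the thin filament, 12 of 35 for the Z-disc, 4 of 12 for the M-band and 0 of 5 for titin partners. High fold enrichments at an end were found at the Z-disc gene Mypn (10.1), which encodes the titin and nebulin partner myopalladin, the actin capping gene Capza1 (9.98, a peak also at an end of St7l), the myosin phosphatase subunit gene Ppp1r12b (9.32), the LIM protein gene Pdlim5 (8.32), the small heat shock gene Hspb8 (8.15), Obsl1 (7.89, also at an end of Inha), a relative of obscurin, and Alpk3 (7.89), an M-band pseudokinase gene. The pair with a KO PHF2 peak encode intermediate filament proteins that partner desmin. Synm, synemin, had a fold enrichment of 5.25 in the KO PHF2 list and 7.01 in the Ctrl PHF2 list. Vim, vimentin, a gene expressed by non-fibre cells of muscle, had 6.64 in the KO PHF2 list and 5.55 in the Ctrl PHF2 list. Fold enrichments of separate lists cannot be compared, so whether the signal at these genes changed was not measured.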

How the data were processed

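Groups came from the sample titles, with 1 library each. Reads were aligned with Bowtie2 to mm10 and peaks called with MACS2, per the submitters' processing notes. Their versions, settings and control library are not stated in the labels. The authors' deposited lists have 10 columns in the narrowPeak layout, with fold enrichment (a ratio), -log10 p and -log10 q. The deposited score, the whole part of 10 times the -log10 q, was left aside. All are values of the authors, and served to rank or filter peaks inside their own list.

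Overlap meant at least 1 bp. Genes and promoters came from RefSeq tables of GRCm38.p6, without exons. Whole tags at each summit were solved from fold enrichment and -log10 p, taking MACS2's fold as (pileup + 1) / (background + 1). All 84 KO PHF2 and 309 Ctrl PHF2 pairs of values gave whole tags within 0.005 under 1 factor per list (0.609 and 0.649). Other factors gave at most 61.9% and 49.8%. Library depth is unknown. Scaled tags are the units of pileup and background, in which 1 tag of a PHF2 list counts as that list's factor. Shares carry Wilson intervals, and a count of 0 is limited by 3 counts.

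The members, the further gene list, the groupings and the motifs were chosen with earlier results of these data known. Every member with a peak was named, the others by part, and of the further genes the 8 highest at an end, except 1 that is not reported here. The Synm and Vim values, St7l, Inha and Mtr were chosen for naming with values in view. The alternatives used other windows, thresholds, overlaps and assignments. Methods were tested on simulated data. Tools were pandas 2.3.3, SciPy 1.17.1, NumPy 2.4.6 and matplotlib 3.10.9 under Python 3.11.15.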

Additional observations from a re-analysis of the deposited data

How the results depend on the processing

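No paired analysis was possible because there was only 1 library a group, which also means that none could be omitted. Of 38 alternatives to the counts above, 32 stayed within 1.5 times the reported count and 6 moved. With the stronger 50% of the Ctrl PHF2 list by fold enrichment, 4 of 41 sarcomere genes had a peak in the gene plus 5 kb, against 3.94% of all genes. At an end it was 3 of 41, against 3.04%. Myom1 is in both counts only through the peak on its neighbour Myl12a. With only as many Ctrl PHF2 peaks as the KO PHF2 list holds, 1 gene (Des) was left by either measure. An end set at 0.5 kb put 1 peak in a flank, and an end set at 2 kb left 3 peaks in a body. The use of listed starts and the removal of the Myl12a peak were added after seeing the data. With 11 to 24 tags at a summit, the Poisson intervals of these peaks overlap, and differences between them were not tested.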
